A study of Mus musculus with 12 samples.

Results

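The comparison described here sets NoTg Foxo3-/- ovaries against Tg Foxo3+/- ovaries, the 2 groups of the study that stand farthest apart in their source of Foxo3. It uses 6 of the 12 samples in the series, 3 in each group, taken by their labels. NoTg Foxo3-/- females carried no transgene and were null for Foxo3, while Tg Foxo3+/- females carried the transgene and 1 intact Foxo3 allele. The other 6 samples, 3 Tg Foxo3-/- (null, with the transgene) and 3 NoTg Foxo3+/- (heterozygous, without it), served to ask whether they lie between those extremes. All samples were total RNA of ovaries from FVB/N females at 14 dpn, hybridised to Illumina mouse bead arrays. By its title the series concerns constitutively active Foxo3 in oocytes. The labels give neither the promoter of the transgene, nor its mutations, nor the founder line, and no group holds ovaries with both Foxo3 alleles intact.

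FOXO3 is a forkhead transcription factor that, in the nucleus of the oocyte, holds primordial follicles in their resting state. Kit signalling through PI3K and AKT phosphorylates it and moves it out of the nucleus, and the follicle then begins to grow. Mice that lack Foxo3 are known for activating their primordial follicles early and for losing their reserve. A constitutively active form is one that this phosphorylation can no longer move.

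Values are log2 intensities after background correction and quantile normalization. A probe was called, and is said to have risen or fallen, when limma's Benjamini-Hochberg adjusted p over 22511 tested probes was under 0.05. Differences are NoTg Foxo3-/- minus Tg Foxo3+/-, with the standard error (SE) of the model. Whole ovaries were measured, so fewer cells of a type and less RNA per cell cannot be told apart.

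The arrays detected between 20072 and 22015 probes each, and bright probes, at the 90th percentile, had 8.94 to 14.9 times the raw intensity of the array's background. The labelled tissue was borne out by oocyte genes such as Gdf9 and by the granulosa gap junction gene Gja1, both bright on every array. Array background, the median raw intensity of probes with a detection p-value over 0.5, differed with the groups. It was 79.9 to 81.2 on NoTg Foxo3-/- arrays and 65.4 to 67 on Tg Foxo3+/- arrays, a difference of 14.7. The two-sided exact permutation p was 0.1, the smallest that 3 against 3 arrays allow. The intermediate groups had 68.5 to 74.2 (Tg Foxo3-/-) and 76.3 to 79.8 (NoTg Foxo3+/-). In the main comparison background and group cannot be told apart. Between the intermediate groups the background ran the other way, lower in the null.

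**Figure D1:**
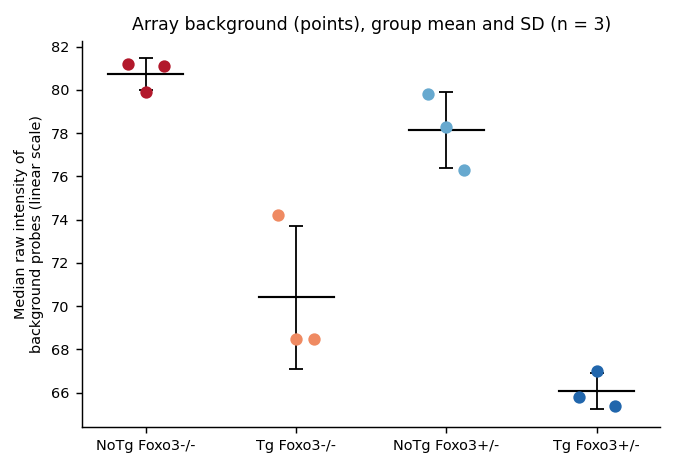
Median raw intensity of background probes (linear scale) on each of the 12 arrays by group, with the group mean and SD (n = 3). NoTg Foxo3-/- arrays lie at 79.9 to 81.2 and Tg Foxo3+/- arrays at 65.4 to 67, and the vertical axis does not start at 0.

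Foxo3 itself, on chromosome 10, had 3 probes, and 1 of them passed the detection filter. That probe stood at 8.44, 8.17 and 8.64 in NoTg Foxo3-/- ovaries, against 7.88, 7.86 and 8.12 in Tg Foxo3+/- ovaries. The null arrays were thus the higher ones, without overlap, by 0.46 ± 0.17 (SE), and the difference did not pass (limma adjusted p = 0.128). Tg Foxo3-/- ovaries stood at 8.28 ± 0.08 and NoTg Foxo3+/- ovaries at 8.04 ± 0.34 (SD, n = 3 each). The sources do not say whether this probe lies in the deleted stretch or in the transgene, and it therefore says nothing about the labels.

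The comparison called 1063 of 22511 probes (4.72%). In NoTg Foxo3-/- ovaries 630 of them were higher (2.80%) and 433 lower (1.92%). The groups did not overlap for 1057 of the 1063, against 22.8% of all tested probes. The median fold of the called probes was 1.60 for those higher and 1.59 for those lower, and 50 and 51 of them passed 2-fold. Counted by gene, at the brightest probe of each, 664 of 12173 genes were called (5.45%), 367 higher (3.01%) and 297 lower (2.44%). Median scaling called 228 higher and 84 lower, and the authors' normalized values 2255 higher and 206 lower, so the split moved from 59.3% higher to 73.1% and 91.6%. With array background as a covariate 0 were called, 691 passed an unadjusted p under 0.05, and 945 of the 1063 kept their sign. Background separates the groups completely, so that fit leaves little information on their difference, and its 0 calls decide nothing.

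**Figure D2:**
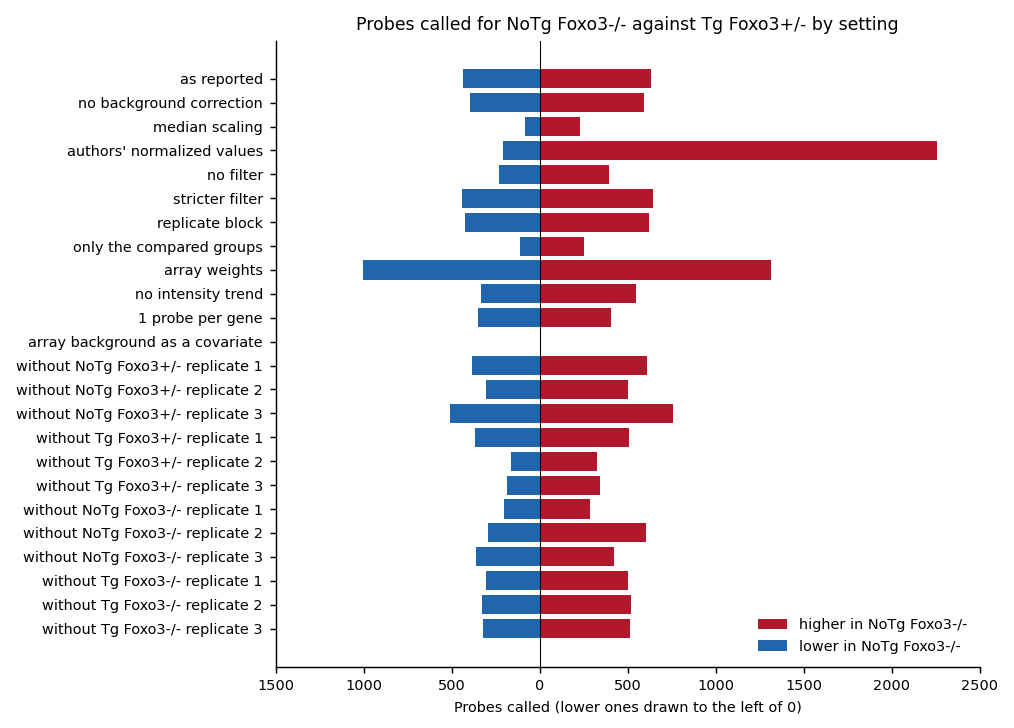
Number of probes called for NoTg Foxo3-/- against Tg Foxo3+/- ovaries under each setting, higher ones to the right of 0 and lower ones to the left. As reported, 630 were higher and 433 lower, against 0 in all with array background as a covariate. The covariate fit leaves little information, because background separates the groups completely.

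Genes of the oocyte were among the rises. The oocyte builds the zona pellucida, a glycoprotein coat, secretes growth factors that act on granulosa cells, and stores maternal proteins that the early embryo will need. Zp3, which encodes a glycoprotein of the zona, stood at 13.69, 13.85 and 13.80 in NoTg Foxo3-/- ovaries, against 12.87, 12.97 and 13.09 in Tg Foxo3+/- ovaries. Khdc3, of the subcortical maternal complex beneath the oocyte membrane, stood at 10.98, 10.98 and 10.75 against 10.04, 10.04 and 9.87. In both genes every NoTg Foxo3-/- array lay above every Tg Foxo3+/- array. Genes named as FOXO targets were among the falls. Cdkn1a, a cell cycle inhibitor, stood at 6.98, 6.74 and 7.07 in NoTg Foxo3-/- ovaries, against 7.73, 7.82 and 7.63 in Tg Foxo3+/- ovaries, with no overlap. Pdk4, a kinase that restrains pyruvate use in mitochondria, stood at 6.43, 6.52 and 7.29 against 7.41, 8.18 and 7.69, also without overlap.

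The promoters of 3 oocyte genes that rose and 2 FOXO targets that fell are shown, as examples that are not typical of the rises. The zona genes are known for E-boxes that an oocyte factor, FIGLA, binds, and FOXO targets for the forkhead element. Each run is the 250 bases before the gene's start, 5′ to 3′ on the gene's strand, from RefSeq on GRCm38.p6. Capitals mark a match on either strand to CANNTG (E-box) or GTAAACA (forkhead).
Zp3, chr5:135979855-135980104, plus strand: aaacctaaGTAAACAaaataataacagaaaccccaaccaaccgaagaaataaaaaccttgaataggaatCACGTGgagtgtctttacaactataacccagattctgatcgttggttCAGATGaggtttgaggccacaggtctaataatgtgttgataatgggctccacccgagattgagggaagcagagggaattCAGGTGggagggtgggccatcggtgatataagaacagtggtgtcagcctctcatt
Oosp1, chr19:11691052-11691301, minus strand: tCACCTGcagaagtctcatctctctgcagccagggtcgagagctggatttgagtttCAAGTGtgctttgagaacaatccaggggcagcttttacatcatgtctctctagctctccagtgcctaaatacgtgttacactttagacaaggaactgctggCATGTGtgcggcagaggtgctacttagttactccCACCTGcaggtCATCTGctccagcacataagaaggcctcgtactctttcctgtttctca
Khdc3, chr9:73102148-73102397, plus strand: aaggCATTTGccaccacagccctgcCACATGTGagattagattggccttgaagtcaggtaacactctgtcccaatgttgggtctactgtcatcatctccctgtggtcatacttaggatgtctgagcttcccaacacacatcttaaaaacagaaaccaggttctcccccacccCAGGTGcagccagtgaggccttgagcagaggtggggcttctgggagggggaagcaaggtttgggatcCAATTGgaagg
Cdkn1a, chr17:29090729-29090978, plus strand: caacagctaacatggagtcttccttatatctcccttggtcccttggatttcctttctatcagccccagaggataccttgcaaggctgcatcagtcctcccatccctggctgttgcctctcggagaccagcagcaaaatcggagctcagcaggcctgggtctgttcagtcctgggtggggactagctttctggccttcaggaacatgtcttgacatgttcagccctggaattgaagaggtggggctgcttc
Pdk4, chr6:5496279-5496528, minus strand: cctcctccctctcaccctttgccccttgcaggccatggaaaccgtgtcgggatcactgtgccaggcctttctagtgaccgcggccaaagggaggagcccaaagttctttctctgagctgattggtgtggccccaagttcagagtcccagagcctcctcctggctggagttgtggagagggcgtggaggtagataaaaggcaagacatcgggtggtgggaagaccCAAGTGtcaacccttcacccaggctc
Zp3 held the forkhead letters with their first base 242 bases upstream of the start, and E-box letters at 181, 134 and 55 bases. Oosp1, an oocyte-secreted protein gene, held 5 E-box matches. Khdc3 held 5, of which those at 225 and 223 bases overlap. Pdk4 held 1, at 26 bases, and Cdkn1a held neither motif in this window. Of the 42 promoters found for called list members, 31 held E-box letters and 1, that of Zp3, the forkhead letters. No other of the 42 held more E-box matches than Oosp1 and Khdc3. Dnmt1, Gtsf1, Uchl1 and Msh4, which also rose, held neither motif. The E-box letters were present in 65.7% of 303 promoters of genes called higher, 62.9% of 240 called lower and 58.2% of 9769 over all tested genes with a promoter. The forkhead letters were present in 2.64%, 3.33% and 2.17% of the same sets. These are matches of letters, given as a description and not tested.

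Among 12 tested genes for the zona pellucida and for proteins the oocyte secretes, 7 rose and 0 fell, and all 12 lay above 0. Of all genes 3.01% rose, 2.44% fell and 46.3% lay above 0. Those shares stand beside the counts between the extremes for every list that follows. The median difference was 0.46, against -0.02 over all genes. Zp3 rose 1.75-fold (log2 0.80 ± 0.09 SE, limma adjusted p = 0.000133), and Zp1, which cross-links the zona filaments, 1.80-fold (0.85 ± 0.10, adjusted p = 0.000245). Gdf9, an oocyte growth factor for granulosa cells, rose 1.32-fold (0.40 ± 0.10, adjusted p = 0.0292). It stood at 14.87, 14.58 and 14.74 in NoTg Foxo3-/- ovaries, against 14.48, 14.20 and 14.31 in Tg Foxo3+/- ovaries. Izumo1r, the oocyte receptor for the sperm protein IZUMO1, rose 1.67-fold, with detection on 2 of 3 arrays in Tg Foxo3+/-. For Izumo1r 1 of 3 tested probes was called, and another stood at 0.23. Bmp6, a further secreted growth factor, rose 1.66-fold, Oosp1 1.42-fold and Oosp2 1.39-fold. Of settings other than the background covariate, 4 lost the call of Bmp6, 4 that of Oosp2, 2 that of Oosp1 and 2 that of Izumo1r. Among these were the fits without NoTg Foxo3-/- replicate 1 (Bmp6 0.71, Izumo1r 0.68) or replicate 3 (Oosp2 0.41), and without Tg Foxo3+/- replicate 2 (Bmp6 0.63) or replicate 3 (Oosp2 0.47). Zp2 (0.26, adjusted p = 0.43) and Bmp15 (0.10, adjusted p = 0.68) did not pass. The summed level of the list, as the mean log2 intensity of its members, was 10.2 to 10.3 on NoTg Foxo3-/- arrays and 9.78 to 9.84 on Tg Foxo3+/- arrays. Zp3 and Zp1 kept their calls in every setting other than the background covariate. Gdf9 lost its call in 8 others, among them those without Tg Foxo3+/- replicate 2 or 3 and those without NoTg Foxo3-/- replicate 1 or 3.

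Of 7 tested genes of the subcortical maternal complex, which the embryo needs to pass its first divisions, 5 rose and 0 fell (median 0.63). Khdc3 rose 1.89-fold (0.92 ± 0.13 SE, limma adjusted p = 0.000995). Tle6 rose 1.65-fold, Padi6, which the oocyte's cytoplasmic lattices need, 1.48-fold, and Ooep 1.28-fold. Nlrp4f was detected on no Tg Foxo3+/- array and was at least 1.18-fold higher (adjusted p = 0.0146). Nlrp5, known as Mater, stood at 0.27 and Zbed3 at 1.08, and neither passed (adjusted p = 0.12 and 0.088). The bound sets the mean of the brighter group against the higher of the dim probe and the lowest detected signal on each array. Ooep lost its call in 9 settings other than the covariate.

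Of 23 other maternal effect genes, 10 rose and 0 fell (median 0.51). Dnmt1, the maintenance DNA methyltransferase, stood at 12.68, 12.53 and 12.71 in NoTg Foxo3-/- ovaries, against 11.74, 11.83 and 11.87 in Tg Foxo3+/- ovaries (0.82 ± 0.09 SE, 1.77-fold, limma adjusted p = 0.000133). Oas1e, an oocyte member of the oligoadenylate synthetase family, stood at 11.40, 10.85 and 11.09 against 10.05, 9.82 and 9.67, a 2.41-fold rise (adjusted p = 0.000211). Both genes separated the groups with a gap wider than the spread within either. Gtsf1, which takes part in piRNA silencing in germ cells, stood at 8.79, 8.69 and 8.64 in NoTg Foxo3-/- ovaries, against 7.08, 7.55 and 7.69 in Tg Foxo3+/- ovaries (2.40-fold, adjusted p = 0.000245). Pabpn1l, a poly(A)-binding protein of the oocyte, rose 2.19-fold, and Npm2, an oocyte chromatin chaperone, 1.64-fold. Omt2b, Oas1d, Uchl1, Dppa3 and Omt2a rose 1.43-fold to 1.52-fold. Omt2a and Omt2b are close copies, as are members of the Oas1 family, and their probes may share signal. Dnmt3l, a cofactor of de novo methylation, was the lowest of the list at -0.52 (adjusted p = 0.10). The calls of Dnmt1, Oas1e, Gtsf1, Pabpn1l and Oas1d held in every setting other than the covariate. Uchl1 lost its call in 10 such settings, Npm2 in 4, Dppa3 in 3, Omt2a in 2 and Omt2b in 1.

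**Figure D3:**
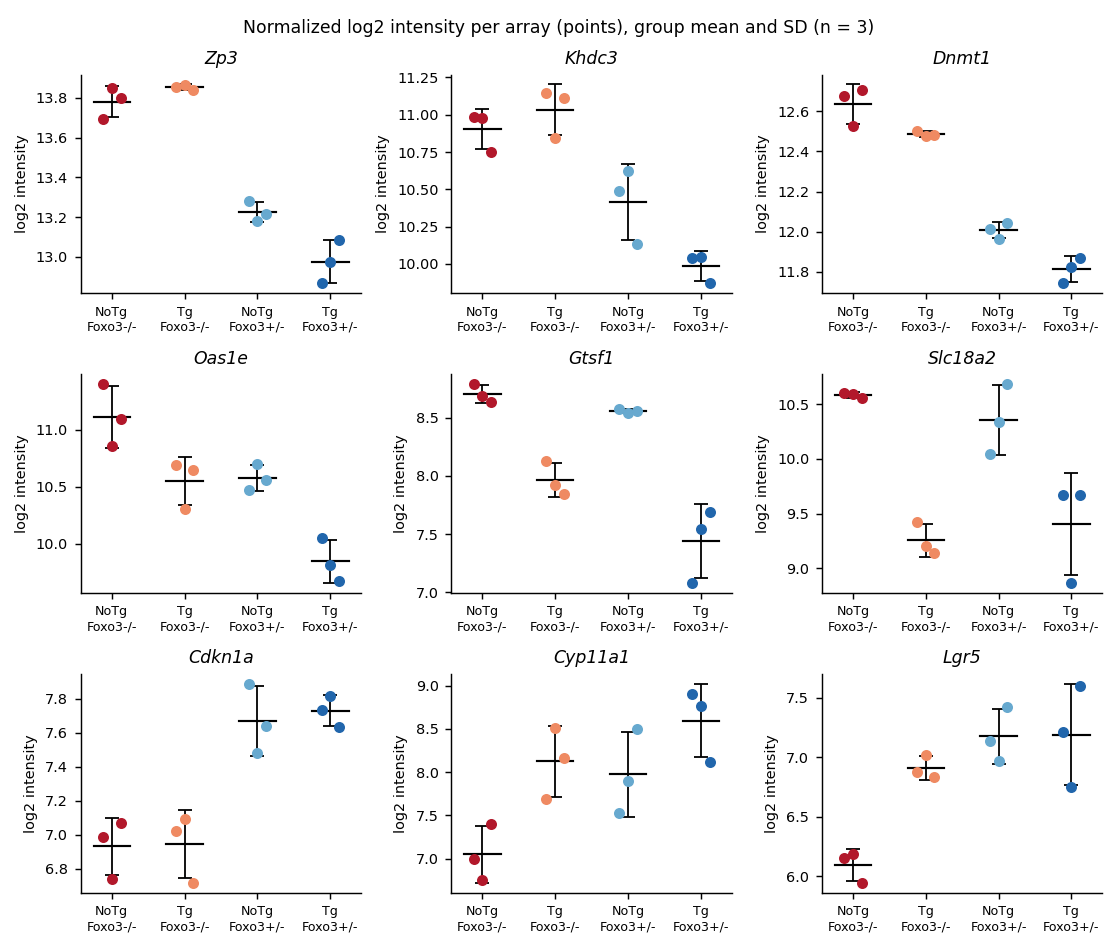
Log2 intensity of 9 genes on each of the 12 arrays by group, with the group mean and SD (n = 3), each panel on its own axis. NoTg Foxo3-/- arrays lie above Tg Foxo3+/- arrays in Zp3, Khdc3, Dnmt1, Oas1e, Gtsf1 and Slc18a2, and below them in Cdkn1a, Cyp11a1 and Lgr5.

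Regulators of the germ line moved less as groups. Of 12 oocyte transcription factors 3 rose and 0 fell, with a median of 0.08. Foxr1, a forkhead gene of the oocyte, rose 1.97-fold, although its other probe stood at 0.11. Tbpl2, the oocyte's TATA-box-binding protein relative, rose 1.94-fold, and Pou5f1, the OCT4 gene, 1.74-fold (log2 0.80 ± 0.12 SE, limma adjusted p = 0.00148). Nobox stood at 0.12, Sohlh1 at 0.03, Lhx8 at 0.23 and Figla at -0.20, none passing (adjusted p = 0.77, 0.95, 0.35 and 0.67). Of 11 germ cell RNA and piRNA genes 1 rose, Cpeb1, which controls translation of stored messages (1.77-fold), with a median of 0.04. The germ cell markers Ddx4 and Dazl stood at 0.24 and 0.18 (adjusted p = 0.61 and 0.68). Of 12 meiosis genes 2 rose, the synaptonemal complex gene Syce2 (2.06-fold) and the crossover gene Msh4 (1.68-fold). Msh4 lost its call in 4 settings other than the covariate.

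Of 29 FOXO targets 0 rose and 5 fell, beside 3.01% and 2.44% of all genes, and 20 lay below 0 (median -0.14). Cdkn1a fell 1.74-fold (log2 -0.80 ± 0.16 SE, limma adjusted p = 0.00877) and lost its call with median scaling and with the covariate. Its other 2 tested probes also lay below 0, without a call. Pdk4 fell 2.02-fold (-1.02 ± 0.24, adjusted p = 0.025). Gabarapl1, an autophagy gene, fell 1.44-fold and stood at 9.96, 10.27 and 10.51 in NoTg Foxo3-/- ovaries, against 10.79, 10.70 and 10.84 in Tg Foxo3+/- ovaries. Tgfbr1, a TGF-beta receptor gene, fell 1.33-fold at its brightest probe, while a dimmer one stood at 0.24. Cited2, a transcriptional coregulator, fell 1.76-fold with overlapping groups. Its levels were 10.89, 10.24 and 11.56 in NoTg Foxo3-/- ovaries, against 11.53, 11.84 and 11.76 in Tg Foxo3+/- ovaries. Without NoTg Foxo3-/- replicate 2 its difference was -0.48, and 16 settings other than the covariate lost the call. Pdk4 lost its call in 6, Gabarapl1 in 7 and Tgfbr1 in 11. Classical targets such as Cdkn1b (-0.01) and Sod2 (-0.05) had adjusted p of 0.98 and 0.85. Of 15 genes of the Kit and PI3K pathway, which acts on FOXO3 upstream, 0 were called. Kit stood at 0.17 (adjusted p = 0.47) and Kitl, its ligand gene, at 0.33 (adjusted p = 0.44).

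Most listed somatic genes of the follicle lay below 0, with few of them called. Of 14 granulosa genes 1 rose and 1 fell, and 10 lay below 0 (median -0.24). Gja1, which encodes connexin 43, fell 1.34-fold (log2 -0.42 ± 0.10 SE, limma adjusted p = 0.0303) and lost its call in 9 settings other than the covariate. Foxl2 stood at 0.01, Amh at -0.49 and Inhba at -1.54, none passing (adjusted p = 0.99, 0.14 and 0.12). Inhba, an activin subunit gene, varied widely, with an SD of 1.24 among NoTg Foxo3-/- arrays and 1.12 among Tg Foxo3+/- arrays. The gene that rose, Slc18a2, a vesicular monoamine transporter, stood at 10.61, 10.60 and 10.56 in NoTg Foxo3-/- ovaries, against 9.67, 8.87 and 9.68 in Tg Foxo3+/- ovaries (2.27-fold, adjusted p = 0.00235). Of 7 theca and steroidogenic genes 0 rose and 1 fell, beside 3.01% and 2.44% of all genes. All 7 lay below 0 (median -0.18), while 46.3% of all genes lay above 0. That gene was Cyp11a1, the enzyme that makes pregnenolone from cholesterol, at 7.001, 6.75 and 7.397 in NoTg Foxo3-/- ovaries, against 8.91, 8.76 and 8.12 in Tg Foxo3+/- ovaries. It fell 2.92-fold (-1.55 ± 0.26, adjusted p = 0.00376), without overlap, and 1 of its 3 tested probes was called. The theca hormone gene Insl3 stood at -0.82 (adjusted p = 0.08) and Star, the cholesterol transfer gene, at -0.07 (adjusted p = 0.92).

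Epithelial and matrix genes held most of the other falls on the lists. Of 15 surface epithelium genes 0 rose and 4 fell, with a median of -0.40. The list's mean level was 7.31 to 7.37 on NoTg Foxo3-/- arrays and 7.69 to 7.72 on Tg Foxo3+/- arrays. Lgr5, an R-spondin receptor found in the ovarian surface epithelium, stood at 6.15, 6.19 and 5.95 in NoTg Foxo3-/- ovaries, against 7.22, 6.75 and 7.60 in Tg Foxo3+/- ovaries. It fell 2.14-fold (log2 -1.09 ± 0.19 SE, limma adjusted p = 0.00466). Lgals2, a galectin gene, fell 1.92-fold, Krt18, a keratin of simple epithelia, 1.69-fold and Aldh1a2, which makes retinoic acid, 1.55-fold. The mesothelial genes Upk3b and Msln stood at -0.40 and 0.08 (adjusted p = 0.11 and 0.84). Lgr5 and Lgals2 kept their calls in every setting other than the covariate, while Krt18 lost its call in 6 and Aldh1a2 in 3.

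Of 8 genes listed for oviduct and bursa, tissue attached to the ovary at dissection, 1 rose and 3 fell. The list also holds epithelial genes that need not come from attached tissue. The tight junction genes Cldn10 and Cldn3 fell 2.15-fold and 1.91-fold, the chloride channel gene Cftr fell 1.84-fold, and Cldn4 rose 1.54-fold. For Cldn10 1 of 3 tested probes was called. Cftr lost its call in 4 settings other than the covariate, Cldn3 in 2 and Cldn4 in 1. The oviduct's own secretory gene Ovgp1 stood at -0.11 and the ciliary regulator Foxj1 at -0.04 (limma adjusted p = 0.76 and 0.91). The list's mean level was 6.39 to 6.61 on NoTg Foxo3-/- and 6.74 to 6.77 on Tg Foxo3+/- arrays. The part of attached tissue in these falls was not tested. Of 16 stroma and matrix genes 1 rose and 3 fell. The small proteoglycan genes Lum, Ogn and Dcn fell 1.66-fold, 1.49-fold and 1.30-fold, and the collagen gene Col1a2 rose 1.55-fold. Of their tested probes 1 of 2 for Lum, 1 of 3 for Ogn and 1 of 4 for Dcn was called, and another Ogn probe stood at -0.008. Col1a1 and Col3a1 stood at -0.10 and -0.19 (adjusted p = 0.82 and 0.79). Dcn lost its call in 11 settings other than the covariate, Lum and Col1a2 in 3 each and Ogn in 1. Of 3 tested adipose genes Scd1, a desaturase, fell 1.66-fold and Lpl, the lipoprotein lipase, 1.36-fold. The fat cell genes Adipoq, Fabp4, Cidec and Retn did not pass the detection filter, and Lpl lost its call in 11 settings.

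Lists of other cells gave no call. Of 7 smooth muscle, 9 endothelial, 9 macrophage, 2 lymphocyte and 4 erythrocyte genes 0 rose and 0 fell, and all 7 smooth muscle genes lay below 0 (median -0.28). The erythrocyte mean was 7.84 to 8.30 on NoTg Foxo3-/- and 7.12 to 8.19 on Tg Foxo3+/- arrays, overlapping. None of 7 immediate early genes, which respond to handling, was called. Of 18 cell cycle genes 2 rose and 17 lay above 0 (median 0.32), beside 3.01% and 46.3% of all genes. The mitotic kinase gene Plk1 rose 1.44-fold (limma adjusted p = 0.0334), and the cyclin gene Ccne1 rose by 0.59 on the log2 scale (adjusted p = 0.0419). Plk1 lost its call in 8 settings other than the covariate and Ccne1 in 11. Of 9 chaperone genes Hsp90aa1, a cytosolic chaperone, rose 2.15-fold (log2 1.10 ± 0.14 SE, adjusted p = 0.000537), with 1 of its 2 tested probes called. Hspb1 fell 1.52-fold at its brightest probe, while its other probe stood at 0.43. The Hspb1 call was lost in 8 settings other than the covariate, among them each of those without 1 of the 6 compared arrays (-0.65 to -0.56).

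**Figure D4:**
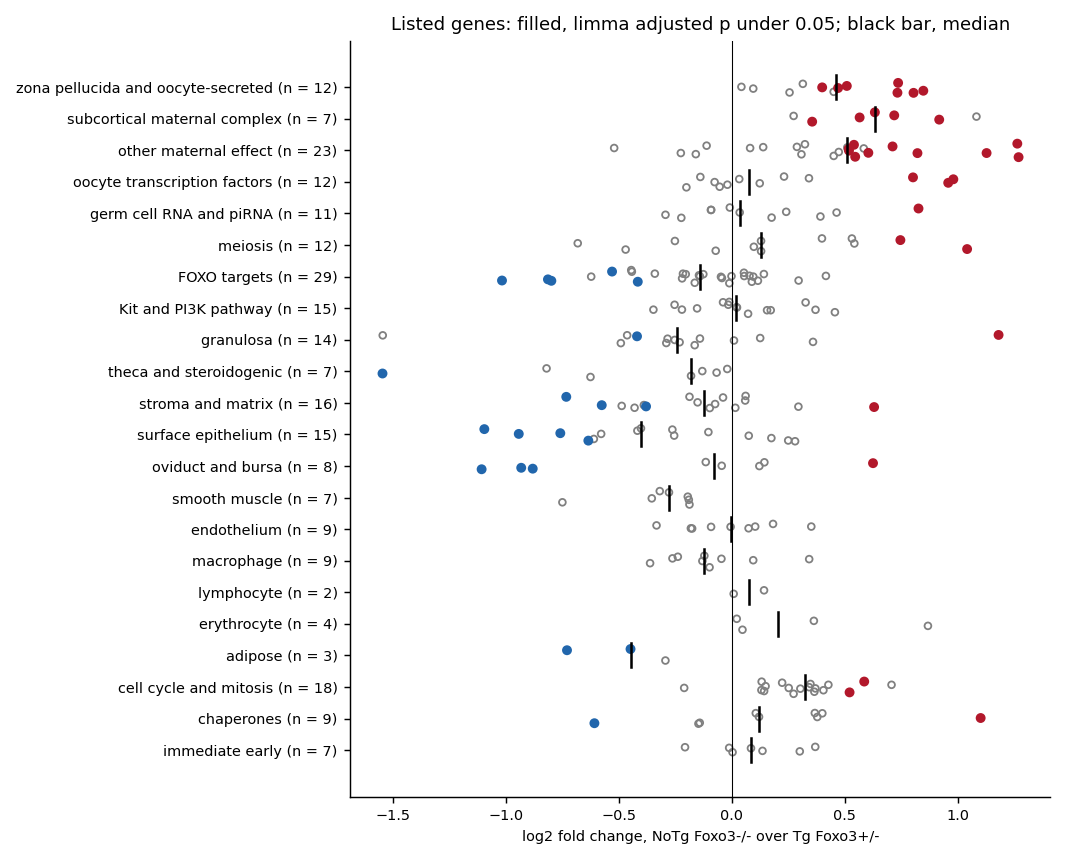
Log2 difference of each tested gene of 22 lists, NoTg Foxo3-/- over Tg Foxo3+/- ovaries, 1 point per gene at its brightest probe. Filled points passed limma's adjusted p under 0.05 and black bars are list medians, from 0.63 in the subcortical maternal complex to -0.45 in the adipose list.

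The largest rises by fold were mostly outside the lists. Fgfbp3, a carrier of fibroblast growth factors, stood at 7.86, 7.32 and 7.49 in NoTg Foxo3-/- ovaries, against 6.24, 5.66 and 6.20 in Tg Foxo3+/- ovaries (2.88-fold, limma adjusted p = 0.00105). Acaa1b, a peroxisomal thiolase gene, and Cd7, known as a surface protein of T cells, both rose 2.55-fold. The T cell genes Cd3e and Cd3g stood at 0.14 and 0.01 (adjusted p = 0.67 and 0.99). Vil1, which encodes the actin bundler villin, rose 2.30-fold, Izumo4 2.20-fold, Chp2, a calcineurin-like calcium binder, 2.16-fold, Efcab6 2.13-fold and Cpne9 2.09-fold. Ncapg, a condensin subunit gene, rose 2.13-fold, with detection on 2 of 3 arrays in Tg Foxo3+/-. S100a9, a calcium-binding protein of neutrophils, stood at 4.94, 5.88 and 6.76 in NoTg Foxo3-/- ovaries. It was detected on no Tg Foxo3+/- array (4.49, 4.46 and 4.42) and was at least 2.07-fold higher (adjusted p = 0.0248). Its call was lost without NoTg Foxo3-/- replicate 2 (1.39) or 3 (0.95) and without any 1 Tg Foxo3+/- array (1.39 to 1.42).

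Among named genes at their brightest probe, predicted genes left out, the largest fall was Teddm2, at 4.86, 5.02 and 4.94 in NoTg Foxo3-/- ovaries, against 6.64, 7.31 and 7.37 in Tg Foxo3+/- ovaries (log2 -2.17 ± 0.19 SE, limma adjusted p = 2.77e-05). It was detected on 2 of 3 NoTg Foxo3-/- arrays. Aatk, a kinase gene first found in apoptosing myeloid cells, fell 3.03-fold with levels of 6.79, 7.04 and 6.68 against 8.19, 8.59 and 8.52. Both genes left a gap of over 1 between the groups. Spint4, a protease inhibitor gene, passed detection on no NoTg Foxo3-/- array, which puts it at least 1.89-fold lower there (adjusted p = 0.000256). Serpina3n, a secreted protease inhibitor gene, stood at 8.07, 7.92 and 8.09 in NoTg Foxo3-/- ovaries, against 9.23, 9.34 and 9.07 in Tg Foxo3+/- ovaries (2.27-fold lower, adjusted p = 7.58e-05). Further falls were the G protein gene Gng13 (2.43-fold), Mageb4 (2.51-fold), the aldehyde oxidase gene Aox3 (2.47-fold), Bpifb4 (2.39-fold) and the sulfate transporter gene Slc13a4 (2.35-fold, detected on 1 of 3 NoTg Foxo3-/- arrays). Pcdh9, a protocadherin gene, fell 2.43-fold at its brightest probe and stood at -0.05 at another. Of settings other than the covariate, 5 lost the call of Pcdh9, 3 that of Mageb4 and 1 that of Gng13.

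Some large falls moved with single arrays. The lymphoid chemokine genes Ccl21a and Ccl21c are near-identical copies whose probes may share signal. Ccl21a stood at 10.68, 8.68 and 10.65 in NoTg Foxo3-/- ovaries, against 11.44, 11.52 and 11.49 in Tg Foxo3+/- ovaries (log2 -1.48, limma adjusted p = 0.0208). Without NoTg Foxo3-/- replicate 2 the difference was -0.82 for Ccl21a and -0.75 for Ccl21c, and both stayed called. Their calls were lost without Tg Foxo3+/- replicate 2 (-1.46 for both) or replicate 3 (-1.48 and -1.59), and that of Ccl21c also without replicate 1 (-1.39). Serpina5, a protease inhibitor gene, differed by -1.36, and by -0.89 without either NoTg Foxo3-/- replicate 2 or Tg Foxo3+/- replicate 1. Gsg1l, an AMPA receptor partner, differed by -1.38 and by -1.07 without NoTg Foxo3-/- replicate 2. The calls of Serpina5 and Gsg1l were each lost in 12 settings other than the covariate.

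The second question was where the other groups lie. For each probe a position was computed, the percent of the way from the Tg Foxo3+/- mean (0%) to the NoTg Foxo3-/- mean (100%). Both intermediate groups lay between the extremes for 685 of the 1063 called probes (64.4%). The same held for 20.9% of all tested probes, and for 52.7% of the 874 uncalled probes whose extremes differed by over 0.5. Since called probes were chosen for distant extremes, these shares are a description. Tg Foxo3-/- lay between for 816 and NoTg Foxo3+/- for 891. The median position was 68.7% for Tg Foxo3-/- and 34.9% for NoTg Foxo3+/-. The null with the transgene was nearer to NoTg Foxo3-/- than the plain heterozygote was for 71.2% of the called probes, against 57.3% of all tested.

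Rises and falls were also counted apart. Among the 433 probes that fell, both groups lay between for 74.6%, at medians of 66.5% for Tg Foxo3-/- and 22.6% for NoTg Foxo3+/-, and Tg Foxo3-/- was the nearer one for 86.6%. Among the 630 that rose, both lay between for 57.5%, at 70.5% and 44.7%, and Tg Foxo3-/- was the nearer one for 60.6%. The higher share of falls with both groups between depended on the scaling. It was 59.2% of falls and 74.1% of rises with the authors' normalized values, the reverse order, and 79.8% and 75.9% with median scaling. With the authors' normalized values the medians over all called probes were 46.1% and 46.7%, and Tg Foxo3-/- was nearer for 49.5% (45.4% of rises and 95.1% of falls). The nearness of Tg Foxo3-/- therefore did not hold for the rises in those values, while it held for the falls.

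**Figure D5:**
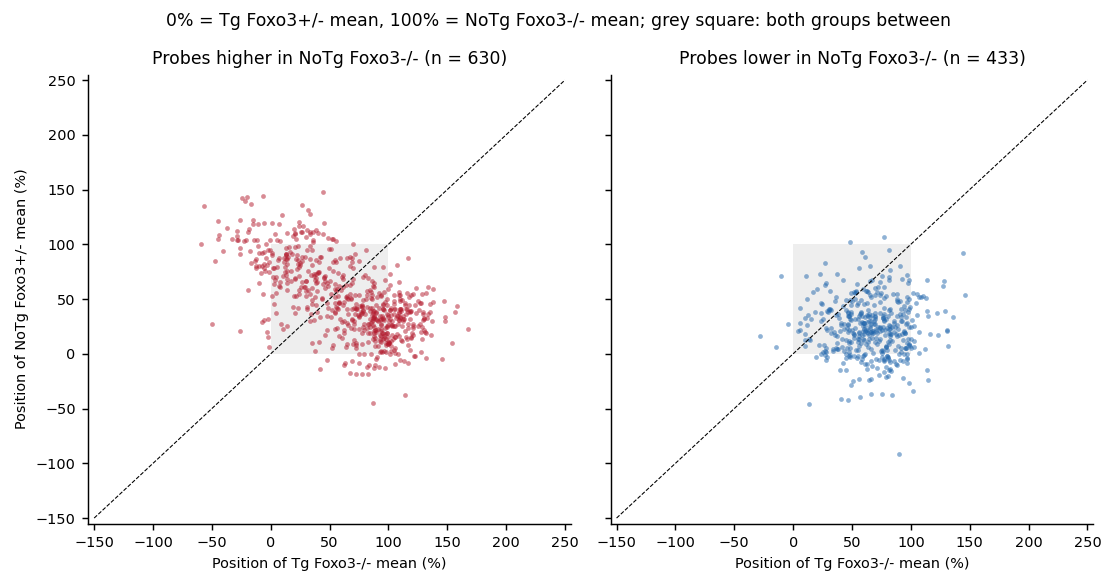
Position of the Tg Foxo3-/- mean (horizontal) against that of the NoTg Foxo3+/- mean (vertical) for each called probe, in percent of the way from the Tg Foxo3+/- mean (0%) to the NoTg Foxo3-/- mean (100%). Both lie in the grey square for 362 of 630 higher and 323 of 433 lower probes, and the dashed line marks equal positions.

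The intermediate groups were tested against each other, Tg Foxo3-/- minus NoTg Foxo3+/-. That contrast uses none of the arrays of the extremes, although the spread is estimated from all 12. It called 1223 probes (5.43%), 354 higher (1.57%) and 869 lower (3.86%). Of the 1063 probes called between the extremes, 233 were also called here in the same direction (21.9%) and 84 in the opposite one (7.90%), against 2.85% and 2.59% of all tested probes. The 317 in both lists make up 29.8% of the first and 25.9% of the second. The overlap and the calls of single genes in this contrast are given for the main fit only. The contrast called 66 probes with median scaling and 346 without Tg Foxo3-/- replicate 3. Of the falls 74 were called in the same direction and 0 in the opposite one, and of the rises 159 and 84. Array background is higher in NoTg Foxo3-/- than in Tg Foxo3+/- and lower in Tg Foxo3-/- than in NoTg Foxo3+/-. The 233 therefore moved against it in 1 of the 2 contrasts, and the 84 moved with it in both.

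Several zona and maternal genes were called the same way in both contrasts. Zp3 stood at 13.86, 13.87 and 13.84 in Tg Foxo3-/- ovaries, against 13.28, 13.18 and 13.22 in NoTg Foxo3+/- ovaries (log2 0.63, limma adjusted p = 0.0022). Both null groups thus lay together and both heterozygous groups below them, with positions of 109% for Tg Foxo3-/- and 31.0% for NoTg Foxo3+/-. Zp1 (0.53), Khdc3 (0.62), Dnmt1 (0.48), Pabpn1l (0.82), Foxr1 (0.68) and Pou5f1 (0.62) were likewise higher in Tg Foxo3-/- than in NoTg Foxo3+/- ovaries, with adjusted p between 0.00616 and 0.0126. Of the 12 zona and oocyte-secreted genes 5 rose and 0 fell between the intermediate groups, against 1.52% and 4.15% of all genes. Of the 7 genes of the subcortical maternal complex 2 rose and 0 fell. The 23 other maternal genes were divided, with 3 that rose (Dnmt1, Pabpn1l and Omt2b) and 3 that fell. These were Gtsf1, Oog4 (-1.41, adjusted p = 0.0026) and Nlrp9b (-0.77, adjusted p = 0.0356), and the last 2, named here after their values were seen, stood at -0.11 and -0.16 between the extremes (adjusted p = 0.829 and 0.723). Among the falls, Teddm2 differed by -1.57, Spint4 by -1.43, Aatk by -1.18, Cldn10 by -1.12 and Cdkn1a by -0.72, all called. Cdkn1a stood at 7.02, 7.09 and 6.72 in Tg Foxo3-/- ovaries, against 7.89, 7.48 and 7.64 in NoTg Foxo3+/- ovaries, which puts it at 98.3% and 7.6% of the way. Other lists also had calls between the intermediate groups, beside the same shares of all genes. Among them, 0 of 29 FOXO targets rose and 5 fell, and 0 of 16 stroma and matrix genes rose and 4 fell. Of 3 adipose genes 0 rose and 2 fell, and of 18 cell cycle genes 3 rose and 1 fell.

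A few named genes went the opposite way, with the signal of both NoTg groups above that of both Tg groups. Gtsf1 stood at 8.13, 7.92 and 7.85 in Tg Foxo3-/- ovaries, against 8.57, 8.54 and 8.55 in NoTg Foxo3+/- ovaries (log2 -0.59, limma adjusted p = 0.0307). Slc18a2 differed by -1.10 (adjusted p = 0.00462), at 9.43, 9.20 and 9.14 against 10.04, 10.34 and 10.68. Its Tg Foxo3-/- mean lay outside the extremes, at -12.5%. Golm2, the histone acetyltransferase scaffold gene Trrap, the endoplasmic reticulum gene Vapa and Dmxl2 differed by -1.19 to -0.92 in the same arrangement, with Tg Foxo3-/- positions between -58.9% and -16.5%. In these genes the arrays of higher background were the brighter ones in both contrasts, and the part of background and of the transgene cannot be told apart. Golm2 rests on 1 probe of 2, the other standing at -0.06, Dmxl2 was detected on 1 of 3 Tg Foxo3-/- arrays, and the calls of Golm2, Vapa and Dmxl2 between the extremes were lost in 10, 12 and 12 settings other than the covariate.

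Other named genes placed the intermediate groups near the middle or near 1 end. Oas1e had 10.69, 10.30 and 10.65 in Tg Foxo3-/- ovaries, against 10.47, 10.70 and 10.56 in NoTg Foxo3+/- ovaries, positions of 55.4% and 57.7%. Cpeb1 (57.4% and 53.0%) and Oosp1 (47.4% and 64.7%) lay similarly, and between the intermediate groups the 3 genes differed by -0.03, 0.04 and -0.09 in the order named (limma adjusted p = 0.935, 0.921 and 0.675). Aldh1a2 (10.2% and 7.3%), Lgr5 (25.4% and 1.3%) and Gng13 (19.2% and -3.3%) had both groups nearer to Tg Foxo3+/-, with NoTg Foxo3-/- alone set apart. Lgr5 stood at 6.88, 7.02 and 6.83 in Tg Foxo3-/- ovaries, against 7.14, 6.97 and 7.42 in NoTg Foxo3+/- ovaries. Zfp541, Sgsm1 and Ninj2 placed Tg Foxo3-/- beyond NoTg Foxo3-/-, at 148%, 145% and 135%. Sgsm1 stood at 8.08, 7.95 and 8.01 in Tg Foxo3-/- and 7.66, 7.64 and 7.84 in NoTg Foxo3-/- ovaries.

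Whether the mean of the intermediate groups departs from the midpoint of the extremes was tested for every probe. That contrast equals the interaction of transgene and genotype, up to a constant. limma called 0 probes (0.00%), and 953 of 22511 had an unadjusted p under 0.05, fewer than the 4424 of the comparison of the extremes. Of the genes above that lie near 1 end, the midpoint of the extremes minus the intermediate mean was -0.40 for Lgr5 and -0.54 for Gng13 (adjusted p = 0.995 for both). The same difference was -0.16 ± 0.06 for Zp3 (SE, adjusted p = 0.995). Every setting run for this contrast called 0 probes. The number with limma's unadjusted p under 0.05 ran from 685 without NoTg Foxo3+/- replicate 2 to 3065 with array weights. With 3 arrays a group, the lack of calls does not show that the intermediate mean lies at the midpoint.

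The path between the extremes was also tested in its 4 single steps, which share arrays with the main comparison and with each other and are therefore given side by side only. NoTg Foxo3-/- against NoTg Foxo3+/- called 205 probes (0.911%), 90 higher (0.400%) and 115 lower (0.511%). Same-numbered arrays of these 2 groups deviated together (r = 0.18, 0.20 and 0.17). With the replicate number as a block among the NoTg arrays the count was 475, 205 higher and 270 lower, including the 205 called without it. That block was chosen for the correlation seen in these same data. The higher count therefore does not bear on whether the arrays are paired. Median scaling called 52 higher and 10 lower in this step, and the authors' normalized values 169 and 19, so the split moved from 43.9% higher to 83.9% and 89.9%. Tg Foxo3-/- against Tg Foxo3+/- called 497 (2.21%), 339 higher (1.51%) and 158 lower (0.702%). The steps of genotype thus called both rises and falls. NoTg Foxo3-/- against Tg Foxo3-/- called 43 (0.191%), 41 higher (0.182%) and 2 lower (0.00888%). NoTg Foxo3+/- against Tg Foxo3+/- called 82 (0.364%), 81 higher (0.360%) and 1 lower (0.00444%). In the steps of the transgene nearly all calls were higher without it, on the arrays of higher background. With median scaling, and with background as a covariate, limma called 0 probes in either step. In the null 2057 and 737 probes then had an unadjusted p under 0.05, and in the heterozygote 1927 and 544. Background separates the groups completely in either step, so the covariate fit leaves little information there and its 0 calls decide nothing.

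The targeted allele sits among other genes of its chromosome, and the tested genes around it were therefore counted. Of the 50 tested genes nearest to Foxo3 on chromosome 10, 25 on each side, 1 rose and 4 fell, which is 10% against 5.67% of the 582 tested genes of that chromosome. The gene that rose was Prep, a prolyl peptidase gene (log2 0.51 ± 0.12 SE, limma adjusted p = 0.0248). Those that fell were Crybg1 (-0.84 ± 0.15), Fam162b (-1.15 ± 0.24), Ddo, the D-aspartate oxidase gene (-0.73 ± 0.18), and Marcks, a substrate of protein kinase C (-0.39 ± 0.11). These genes were chosen for their place and not by the rule for named genes. Ddo was detected on 2 and Fam162b on 1 of 3 NoTg Foxo3-/- arrays.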

How the data were processed

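Per the labels' protocols, total RNA of mouse ovaries was amplified with an Illumina kit to biotin-labelled cRNA. The deposited intensity table is on a linear scale, neither background-subtracted nor normalized, and per the file headers pairs every array with detection p-values. The authors' normalized intensity was used only as an alternative, after log2. Its method, the scanner and the annotation version are not given in the sources used here. In all, 12 arrays fall by title into 4 groups of 3. limma 3.58.1 in R 4.3.3 corrected background (normexp from detection p-values, offset 16), quantile-normalized and took log2. Tested probes had a detection p-value under 0.05 on at least 3 arrays (22511 of 45281). 1 model with 4 group means was fitted to all arrays (lmFit, eBayes with trend). A gene is represented by its brightest probe. Of 45281 probes, 34885 have 1 gene symbol, 18 several and 10378 none here. The 22 lists hold 329 genes, of which 303 matched a symbol and 249 were tested. Promoters came from a RefSeq table that held 42 of the called list members.

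The members, lists and tests were chosen with earlier results of these data known. Named genes are Foxo3, the 15 largest rises and falls with groups apart (no predicted genes), every called list member and the 4 smallest p of each list, the 5 largest differences each way between intermediate groups, and the 3 farthest beyond each extreme. Other list members and the genes near Foxo3 are named beside their counts. Not all are printed. On simulated log2 values of this comparison, with 200 of 22511 probes changed, limma recovered 81% of changes of 1 and 34% of changes of 0.6, with 2 false calls. The simulated noise was independent between probes and arrays and held no difference in array background between groups. The 2 false calls therefore do not measure false calls in the real data. The labels do not state that each sample is another animal: the p-values then reflect spread among these samples only, possibly technical. The number of arrays limits precision. Replicate numbers did not pair the arrays of the main comparison: same-numbered arrays of the extremes deviated together at r = 0.02, -0.10 and -0.05. Only in NoTg Foxo3-/- and NoTg Foxo3+/- did every same-numbered pair exceed 0.1 (0.18, 0.20 and 0.17), and that step was fitted with the block too. Such a pairing rests on the data and not on the labels. Single arrays with different numbers reached as much, such as r = 0.22 for Tg Foxo3-/- replicate 2 with NoTg Foxo3+/- replicate 3. Alternatives were other background, normalization, filter, block, weight, trend, probe and sample choices, array background as a covariate, and each array left out. Table columns that belong to no sample number 0.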

Additional observations from a re-analysis of the deposited data

How the results depend on the processing

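For NoTg Foxo3-/- against Tg Foxo3+/-, the count of 1063 called probes moved over 1.5 times to 312 with median scaling, 2461 with the authors' normalized values (where the median of all probes shifts by 0.10 on the log2 scale), 626 with no filter (more probes tested), 363 with only the compared groups (fewer arrays), 2317 with array weights and 0 with array background as a covariate. The counts without 1 array were 486 to 1269. The 486 without Tg Foxo3+/- replicate 2, 526 without replicate 3 and 488 without NoTg Foxo3-/- replicate 1 were below 1063 by over 1.5 times. The covariate fit leaves little information, because array background separates the compared groups completely. In every setting but the covariate, all tested probes of the 1063 kept their direction. In many of these settings the difference of a probe is the same by construction. Those are the filters, the replicate block, only the compared groups, no intensity trend, 1 probe per gene and an intermediate array left out. Direction could change only with other background correction, normalization or weights, or with a compared array left out. The replicate block gave 1044 calls, 942 of them among the 1063; the numbers do not pair these samples. For Tg Foxo3-/- against NoTg Foxo3+/-, 1223 became 66 (median scaling), 795 (authors' values), 786 (no filter), 3236 (array weights), 743 (1 probe per gene, fewer probes) and 0 (covariate), with 346 to 1690 when 1 array was left out (410 without NoTg Foxo3+/- replicate 3, and 594, 530 and 346 without Tg Foxo3-/- replicates 1, 2 and 3). The alternatives for the 4 single steps were chosen after seeing the data. NoTg Foxo3-/- against NoTg Foxo3+/- (205) gave 62 (median scaling), 89 (no filter), 748 (array weights), 16 (covariate), 475 (replicate block among the NoTg arrays) and 35 to 342 (without 1 array). Tg Foxo3-/- against Tg Foxo3+/- (497) gave 54 (median scaling), 224 (authors' values), 283 (no filter), 2698 (array weights), 17 (covariate) and 123 to 760 (without 1 array). NoTg Foxo3-/- against Tg Foxo3-/- (43) gave 0 (median scaling), 366 (authors' values), 22 (no filter), 80 (stricter filter), 511 (array weights), 13 (1 probe per gene), 0 (covariate) and 0 to 191 (without 1 array). NoTg Foxo3+/- against Tg Foxo3+/- (82) gave 0 (median scaling), 0 (authors' values), 23 (no filter), 26 (replicate block), 930 (array weights), 37 (1 probe per gene), 0 (covariate) and 0 to 125 (without 1 array). The midpoint contrast called 0 in each setting run, where median scaling shifted the median of all probes by 0.11. The share of called probes with both groups between was 76.9% with median scaling and 72.9% with the authors' values. Of 87 named called genes, 36 kept their call in all settings other than the covariate, and 5 changed sign under it: Chp2 (-0.024), Cyp11a1 (0.12), Dppa3 (-0.016), Lpl (0.22) and Plk1 (-0.080). Except where a construction is named, the cause was not tested.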
